A study of Gallus gallus with 8 samples.

Results

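The 100 genes described here, of 30862 features in the deposited table, lay above the 6 other libraries of the series in both SF3B1 knockout libraries, while their mean level in DLC1 and in PHF5A knockout stayed within 1.5-fold of the control mean. They were the top 100, by margin, of 771 genes that met these terms. RNA had been sequenced from green fluorescent (GFP+) primary cells of the chicken (Gallus gallus) trunk neural crest, given Cas9 with a guide RNA. The 4 groups were a scrambled guide as control (2 libraries, replicates 1 and 2), DLC1 knockout, PHF5A knockout and SF3B1 knockout, each knockout with 1 library for each of 2 guides. All groups thus carried GFP selection, Cas9 and a guide. For embryonic stage, the delivery of Cas9 and the share of edited cells, the labels give no value. The labels do not say that the libraries came from separate cultures or embryo pools. The spread between libraries, and the p-values built on it, may thus be technical, and within a knockout it also holds the difference between guides. Libraries of a group did differ in the share of reads from chromosome W, which females carry. It was 0.198% and 0.00279% in the controls, 0.117% and 0.138% in DLC1, 0.0402% and 0.121% in PHF5A, and 0.259% and 0.193% in SF3B1 knockout. Whether the 2 controls differed in their make-up by sex was not tested.

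SF3B1 and PHF5A belong to SF3b, a protein complex within U2 snRNP that grips the branch point of an intron before splicing. SF3B1 is the large scaffold whose repeats clamp the branch point helix, and PHF5A is a small zinc-binding protein that sits against it. The title of the series places DLC1 in a complex with both SF3b subunits. Trunk neural crest cells leave the dorsal neural tube, migrate, and form sensory and sympathetic neurons, glia and pigment cells. The chicken genome is split into a few large chromosomes and many small ones, called microchromosomes, which are rich in genes and in G and C bases and whose genes tend to be short.

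The members were chosen by their measured counts in these 8 libraries, so their rise in SF3B1 knockout is a description of how they were picked and not a finding. Counts were scaled to the nuclear (non-mitochondrial) total of each library as CPM, with 0.5 added. The level of a gene given below includes that 0.5 unless stated otherwise. Genes on chromosomes 1 to 15, 17 to 24, 26 and 28 with a genomic span over 1 kb and up to 300 kb were considered, which left 24413. A mean of at least 5 in SF3B1 knockout and the 1.5-fold bounds on DLC1 and PHF5A knockout left 4938, called eligible genes here. Both SF3B1 libraries lay above the other 6 in 771 of these, a background of 15.6%. The genes were ranked by the ratio of the lowest SF3B1 level to the highest level in the other 6 libraries, and the top 100 were taken. The ratio ran from 2.20 at rank 1 over a median of 1.37 to 1.26 at rank 100, and the first gene outside stood at 1.259. Of the 100 ratios, 17 were at least 1.5 and 81 at least 1.3. The list thus had no gap at its lower end: the genes at ranks 98 (chromosome 28, 2561472 to 2576531), 99 (chromosome 13, 10918509 to 10923413) and 100 had ratios from 1.27 to 1.26. The next 3, on chromosome 18 (10379276 to 10388381), chromosome 19 (5561962 to 5568602) and chromosome 18 (4976515 to 4983928), had ratios from 1.259 to 1.257, with a lowest SF3B1 level of 55.6, 20.6 and 35.7 CPM.

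The deposited identifiers were not paired with gene names, and 0 of them matched the table of 25635 RefSeq genes at hand. Members are therefore given by their position on GRCg6a, the IDs of the first pair excepted, and the level of the targeted genes, cell type markers and pathways of the members were not analysed here. Nor were sequences of the members. Library totals ran from 18226753 to 34698250 counts and followed the groups, at 33864758 or more in DLC1 and PHF5A knockout and 19565587 or fewer in control and SF3B1 knockout. Mitochondrial counts took 25.9% and 21.4% of the controls, 9.65% and 15.7% of DLC1 knockout, 8.01% and 19.6% of PHF5A knockout and 9.44% and 18.0% of SF3B1 knockout. Of nuclear counts, the female-specific W chromosome held 0.198% in control replicate 1, 0.00279% in control replicate 2, and 0.259% and 0.193% in the SF3B1 libraries. The counts of the members ran from 16 to 3445 within the control and SF3B1 libraries and their lowest SF3B1 count had a median of 409 reads. At that depth, the exact 95% Poisson intervals of both SF3B1 libraries lay above those of all 6 others in 82 members and overlapped in 18. These intervals cover counting error only, since sequenced copies of 1 molecule could not be told from separate molecules.

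In these bulk samples, a change in the number of cells of a type and a change in RNA per cell cannot be told apart. The gene at rank 1 was ENSGALG00000063309, on the minus strand of chromosome 1 from 194050714 to 194079444. Its level was 1.63 and 2.18 CPM in the controls, 3.07 and 1.49 in DLC1 knockout, 2.40 and 3.03 in PHF5A knockout, and 8.34 and 6.74 in SF3B1 knockout. Both SF3B1 libraries were more than double any other, and the range of DLC1 knockout spanned the controls and met that of PHF5A knockout, which lay above the controls. It rested on few reads, 139 and 95 in the SF3B1 libraries and 16 to 80 elsewhere, with Poisson intervals of 6.59 to 9.26 and 5.05 to 7.63 CPM (before the added 0.5) in the SF3B1 libraries and an upper bound of 3.21 in the others. The mean in SF3B1 knockout was 7.54 ± 1.13 CPM against 1.90 ± 0.388 in control (SD, n = 2 each), a 3.97-fold difference and the highest of the 100.

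ENSGALG00000057257, at rank 2, lies on the plus strand of chromosome 23 from 110986 to 117318. Its level was 17.9 and 19.7 CPM in the controls, 15.9 and 13.6 in DLC1 knockout, 17.3 and 21.4 in PHF5A knockout, and 42.5 and 39.3 in SF3B1 knockout. Here the guides of SF3B1 were close to each other, and the 6 other libraries spanned a narrow range. The means were 40.9 ± 2.26 in SF3B1 knockout and 18.8 ± 1.28 in control (SD, n = 2 each), a 2.18-fold difference. The gene at rank 3 lies on the same chromosome (2701824 to 2704892, minus strand) and stood at 47.3 and 65.4 CPM in the controls, 42.0 and 37.2 in DLC1 knockout, 33.8 and 56.5 in PHF5A knockout, and 111 in each SF3B1 library. It was 1.97-fold above control, 2.81-fold above DLC1 and 2.46-fold above PHF5A knockout.

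The gene at rank 4 lies on chromosome 1 (83805906 to 83813150, minus strand). It stood at 5.71 and 5.88 CPM in the controls, 5.61 and 4.02 in DLC1 knockout, 5.62 and 5.90 in PHF5A knockout, and 9.87 and 9.44 in SF3B1 knockout, which was 1.67-fold above control. The gene at rank 9, on chromosome 26 (3763465 to 3770551, minus strand), was among the more abundant of the first 10. Its level was 23.0 and 29.3 CPM in the controls, 30.6 and 19.5 in DLC1 knockout, 26.8 and 42.5 in PHF5A knockout, and 66.2 and 66.9 in SF3B1 knockout. Guide 2 of PHF5A was the highest of the others and was the library that set its ratio.

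The remaining genes of the first 10 were on chromosome 4 (77417664 to 77421276, 2.54-fold above control), chromosome 6 (11976888 to 11979299, 1.93-fold), chromosome 8 (29960030 to 29978501, 2.04-fold) and chromosome 3 (81502025 to 81510195, 2.93-fold), with SF3B1 means of 5.51 to 7.41 CPM, and on chromosome 9 (896109 to 904638, 1.84-fold) with a mean of 11.8 CPM. The first 4 of these had control libraries between 1.63 and 3.78 CPM, on 16 to 47 reads each. At the lower end of the list, the gene at rank 100 (chromosome 23, 6121762 to 6136107) stood at 26.7 and 17.7 CPM in the controls, 28.0 and 24.2 in DLC1 knockout, 29.9 and 32.1 in PHF5A knockout, and 43.2 and 40.5 in SF3B1 knockout.

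**Figure D1:**
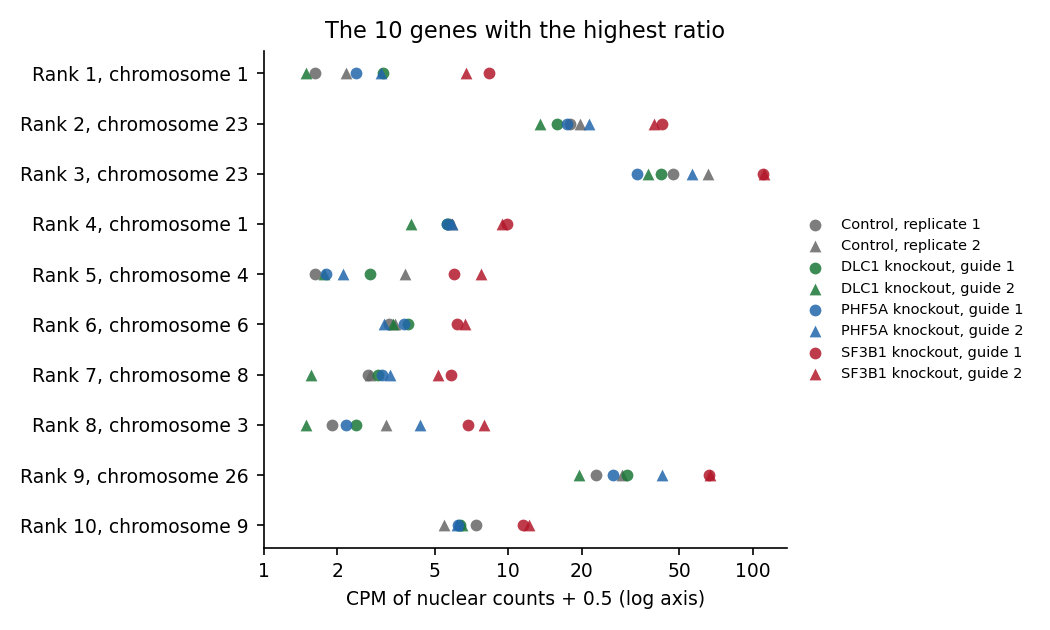
Level of the 10 genes with the highest ratio in each of the 8 libraries, as CPM of nuclear counts plus 0.5 on a log axis; circles are replicate or guide 1, triangles replicate or guide 2. In each row both SF3B1 libraries (red) lie to the right of the 6 others, as the choice of the genes requires, from a ratio of 2.20 at rank 1 to 1.55 at rank 10.

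Over all 100 members, the SF3B1 mean was 1.84-fold above the control mean at the median, with a range from 1.37 to 3.97. It was at least 2-fold higher in 28 members and less than 1.5-fold higher in 11. Against DLC1 knockout the median was 1.91-fold (1.33 to 3.81), and against PHF5A knockout 1.63-fold (1.32 to 3.52), with 39 and 13 members at 2-fold or more. For the eligible genes these medians were 1.07, 1.02 and 1.04. Together the members took 2250 and 2290 CPM in the controls, 2320 and 1970 in DLC1 knockout, 2340 and 2690 in PHF5A knockout, and 4010 and 3980 in SF3B1 knockout. Most were genes of low to moderate level: the control mean had a median of 16.4 CPM and a range of 1.76 to 120 CPM, against a median of 45.5 among eligible genes. The highest SF3B1 mean, 202 CPM, belonged to a gene on chromosome 12 (3512897 to 3525626, minus strand) that stood at 113 and 114 CPM in the controls and 195 and 208 in SF3B1 knockout.

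The same contrasts were fitted for all 15619 tested genes with edgeR's quasi-likelihood test, whose TMM scaling (trimmed mean of M-values) differs from that of the rule. All 100 members passed the filter on low counts. On this scale their log2 fold change against control, whose sign the rule all but fixes, ran from 0.20 to 2.05 with a median of 0.66, against 0.04 for all tested genes. With library size as the only scaling these medians were 1.101 and 0.49, so the distance between members and all genes was 0.62 on the first scale and 0.61 on the second. At an adjusted p under 0.05, 22 members were called higher than control, beside 11% of all tested genes, and 0 lower, beside 5.03% (edgeR; 0 members lower at an unadjusted p under 0.05). Against PHF5A knockout 3 members were called higher, beside 0.365%, and 0 lower, beside 0.749%. Against DLC1 knockout 44 were called higher, beside 2.52%, and 0 lower, beside 2.46%. Nothing is read from these shares, since the rule used all of these libraries. The 3 called against PHF5A knockout were those at ranks 2 and 3 and one at rank 13 on chromosome 13 (12739328 to 12748413, minus strand), chosen here for that call. The gene at rank 2 was the 1 member called against all 3 groups, and 48 members were called against none. Such joint counts are not given for all tested genes, so nothing is read from them either.

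The calls rested on single libraries and on the model, as did those over all tested genes, so nothing about the members is read from their changes. Against control, the members' median log2 fold change of 0.66 was 0.58 and 0.69 without control replicates 1 and 2. It was 0.6 and 0.66 without guide 1 and guide 2 of DLC1, and 0.66 without guide 2 of PHF5A. Without guide 1 and guide 2 of SF3B1 it was 0.62 and 0.54. Fitted as a covariate, the W share and the mitochondrial share each left 0 members called higher than control (edgeR). Of all tested genes, these fits called only 0.0064% and 1.06% higher, so the loss of calls was not particular to the members. The members' median log2 fold change in these fits was 0.64 and 0.70. Against PHF5A knockout the members' median was 0.70 as reported, and 0.55 and 0.825 without guide 1 and guide 2 of PHF5A. Without guide 1 and guide 2 of SF3B1 it was 0.73 and 0.61. Against DLC1 knockout the median was 0.87 as reported, and 0.95 and 0.815 without guide 1 and guide 2 of DLC1. Without guide 1 and guide 2 of SF3B1 it was 0.91 and 0.82.

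Levels in the other knockouts were bounded by the rule, but not their direction. In CPM, the PHF5A mean lay above the control mean in 73 members, at a median of 1.12-fold (0.723 to 1.49), and the DLC1 mean in 38, at a median of 0.941-fold (0.672 to 1.49). On the TMM scale the medians were -0.08 for PHF5A and -0.29 for DLC1 (log2), and all tested genes stood at 0.10 in both. With library size as the only scaling they were 0.335 and 0.108, beside 0.528 and 0.478 for all tested genes. The direction against control thus depended on the scaling for PHF5A and for DLC1. On these scales the members' medians lay below those of all tested genes. Calls higher in either numbered 0 (edgeR; 0 at an unadjusted p under 0.05), which the 1.5-fold bound and the ranking left little room for. The backgrounds of 17.9% for PHF5A and 10.3% for DLC1 come from all tested genes, which carry no such bound, and nothing is read from the difference. In DLC1 knockout 2 members were called lower (background 7.88%), and in PHF5A knockout 1 (background 13.4%). These calls also moved with single libraries, as did the calls over all tested genes. The pair in DLC1 knockout was a gene on chromosome 4 (91174182 to 91216629, minus strand; 89.7 and 97.4 CPM in the controls, 80.3 and 56.6 in DLC1 knockout) and one on chromosome 20, both named here for their calls. The gene on chromosome 20 (5056209 to 5061586, plus strand) was called lower in both. It stood at 30.6 and 31.6 CPM in the controls, 24.0 and 19.8 in DLC1 knockout, 22.6 and 24.3 in PHF5A knockout, and 41.8 and 43.4 in SF3B1 knockout, and had the lowest fold of SF3B1 over control in the list.

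**Figure D2:**
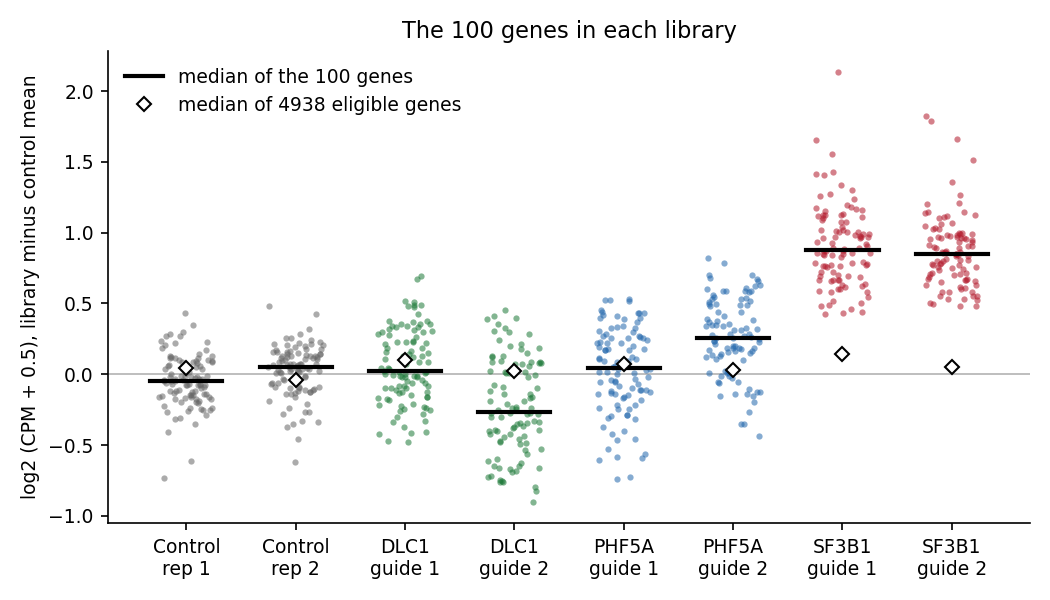
Log2 ratio of each of the 100 genes to its control mean, in every library; bars are medians of the 100 genes and diamonds medians of the 4938 eligible genes. The medians of the 100 genes are 0.88 and 0.85 in the SF3B1 libraries, 0.26 in guide 2 of PHF5A and -0.27 in guide 2 of DLC1, where the eligible genes stand at 0.14, 0.05, 0.03 and 0.03.

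The 2 guides of PHF5A differed at the members. Guide 2 lay above guide 1 in 83 of 100, against 45.9% of eligible genes, with a median log2 ratio of 0.19 against -0.03. Guide 2 of PHF5A was also the highest of the 6 other libraries in 56 members, against 18.3% of eligible genes. Leaving that library out and applying the rule again kept 29 of the 100 and raised the ratio at rank 100 to 1.54, and leaving out guide 2 of SF3B1 kept 52. For DLC1 the order was the other way: guide 2 lay below guide 1 in 88 members, with a median log2 ratio of -0.23 against -0.05 for eligible genes. Control replicate 2 lay above replicate 1 in 64 members, against 37.7% of eligible genes. The PHF5A libraries also differed in mitochondrial share, 8.01% in guide 1 and 19.6% in guide 2, and in W share, 0.0402% and 0.121%. Mitochondrial share was likewise higher in guide 2 of DLC1 (9.65% and 15.7%), where the members were lower, and in guide 2 of SF3B1 (9.44% and 18.0%). The part of these shares in the differences was not tested.

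The guides of SF3B1 were close at the members, as the use of their lowest value favours. Guide 1 was higher in 56 members and guide 2 in 44, against guide 2 higher in 40% of eligible genes. The guides were within 1.1-fold of each other in 60 members and in 2140 of the 4938 eligible genes. The median absolute log2 difference between them was 0.11, against 0.16 for eligible genes, and between the controls it was 0.24 against 0.19. Guides lay over 1.3-fold apart in 4 members and in 684 eligible genes. The widest gap was in a gene on chromosome 2 (26635512 to 26675281, minus strand), at 92.8 CPM with guide 1 and 58.9 with guide 2, where the controls stood at 28.0 and 31.1. A gene on chromosome 11 (751363 to 764678, plus strand) stood at 24.1 and 15.8 CPM. In the opposite direction, a gene on chromosome 1 (170711734 to 170717613, minus strand) stood at 4.34 and 6.09 CPM, with 1.77 and 1.76 in the controls. Number 2 libraries were compared with number 1 libraries over all groups in edgeR, with the group as a term. The rule used these libraries and ranked on the lowest SF3B1 level, so the counts that follow are a description. Within DLC1 and PHF5A knockout the median absolute log2 difference was 0.23 and 0.25 at members, against 0.16 and 0.24 for eligible genes. On the TMM scale 70 members were higher in number 2, at a median log2 of 0.07 against 0.001 for all tested genes. With library size as the only scaling 19 were. No member and no other tested gene was called by edgeR (background 0.0% in either direction). Without adjustment 3 members had a p under 0.05, all higher in number 2, among 1354 tested genes higher and 1093 lower. DESeq2 called 340 genes higher and 175 lower, with 0 members among them, and limma-voom also called 0 members.

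How far the pattern held in libraries not used to choose was asked by applying the same rule to 1 library of each group and reading the chosen genes in the others. Of 100 genes chosen in the number 1 libraries, SF3B1 was the highest of the 4 number 2 libraries in 88, against 29.1% of the 4785 genes eligible in that choice. The median ratio to the highest of the other 3 was 1.3, after 2.01 where they were chosen, and 0.89 for the eligible genes. Of 100 chosen in the number 2 libraries, SF3B1 was highest of the number 1 libraries in 93, against 32.1% of 4236 eligible genes, with a median ratio of 1.34 after 1.47. In the libraries read, the chosen genes were above control by a median log2 ratio of 0.87 and 0.63, and eligible genes by 0.13 and 0.08. Scaled by TMM, the shares were 84 of 100 against 21.0% and 86 of 100 against 20.8%. These are descriptions with 1 library a group, and 31 and 42 of the genes chosen in this way were among the 100 members. Most genes read here were thus no members. The labels do not say that the libraries of a group came from separate cultures. The counts are therefore no independent support for the members' rise.

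**Figure D3:**
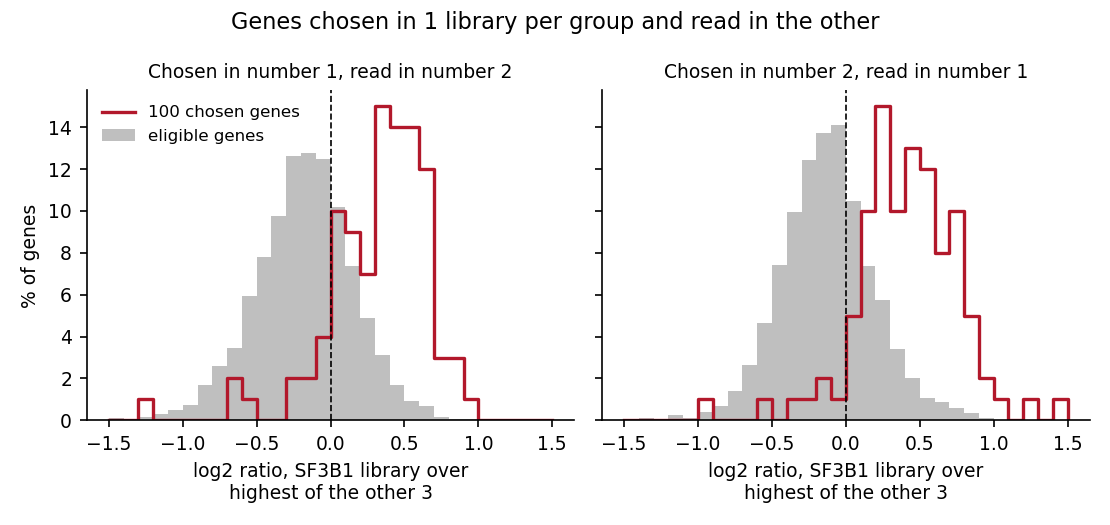
Log2 ratio of the SF3B1 library to the highest of the other 3 libraries, for 100 genes chosen in the other 4 libraries (red line) and for all genes eligible in that choice (grey bars), as a percentage of genes in steps of 0.1, with values past the ends in the end bins. Right of the dashed line SF3B1 is the highest library, which holds for 88 and 93 of the 100 chosen genes and for 29.1% and 32.1% of the eligible ones.

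Position and span entered the rule only as bounds, and are given beside those of the eligible genes. The members' genomic span had a median of 9.49 kb and quartiles of 6.91 and 18.5 kb, against 14.7 kb and 7.20 and 30.9 kb. The shortest, of 1.33 kb, lies on chromosome 14 (5125432 to 5126758, minus strand) and the longest, of 269 kb, on chromosome 6 (571200 to 840354, plus strand). Genes of 3 to 10 kb supplied 49 members, which was 3.26% of the eligible genes of that span. Genes of 10 to 30 kb supplied 34 (1.8%), those of 30 to 100 kb 12 (1.19%), those of 100 to 300 kb 1 (0.395%), and those of up to 3 kb 4 (1.42%). The wider set of 771 genes took 18.9% of eligible genes at 3 to 10 kb, 17.9% at 10 to 30 kb, 11.6% at 30 to 100 kb, 3.16% at 100 to 300 kb and 8.54% at up to 3 kb, so its share at 3 to 10 kb was close to that at 10 to 30 kb.

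Chromosomes 1 to 5 held 26 members and 47.5% of eligible genes. The exact 95% binomial interval of the members' share, for counting alone, was 17.7% to 35.7%. It treats the members as independent, which neighbouring members, and genes ranked in the same libraries, may not be. The interval does not cover the spread between libraries, so nothing about the knockout is read from it. Chromosomes 6 to 10 held 22 members (16.6% of eligible genes) and chromosomes 11 to 28 held 52 (35.9%). Chromosome 23 supplied 8 members, 6.90% of its 116 eligible genes, and chromosome 6 supplied 9, 4.92% of 183. Chromosome 1 supplied 4 of 675, or 0.593%, against 2.03% for the whole list. The other chromosomes gave between 1 and 9 members each, and all 25 chromosomes of the rule gave at least 1. Span and chromosome go together, so they were set against each other. Among genes of 3 to 10 kb, members made up 1.43% of the eligible genes on chromosomes 1 to 5, 3.78% on 6 to 10 and 4.52% on 11 to 28. No other span class rose in this order: genes of 10 to 30 kb had shares of 0.997%, 2.83% and 2.4%. Those of 30 to 100 kb had 1.5%, 0.549% and 0.87%, on 9, 1 and 2 members, while the shortest class had 0%, 4.76% and 1.47%, on 0, 2 and 2 members. The median span was 17.1 kb for members and 18.8 kb for eligible genes within chromosomes 1 to 5, 11.9 and 15.9 kb within 6 to 10, and 8.82 and 10.6 kb within 11 to 28, against 9.49 and 14.7 kb over all.

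**Figure D4:**
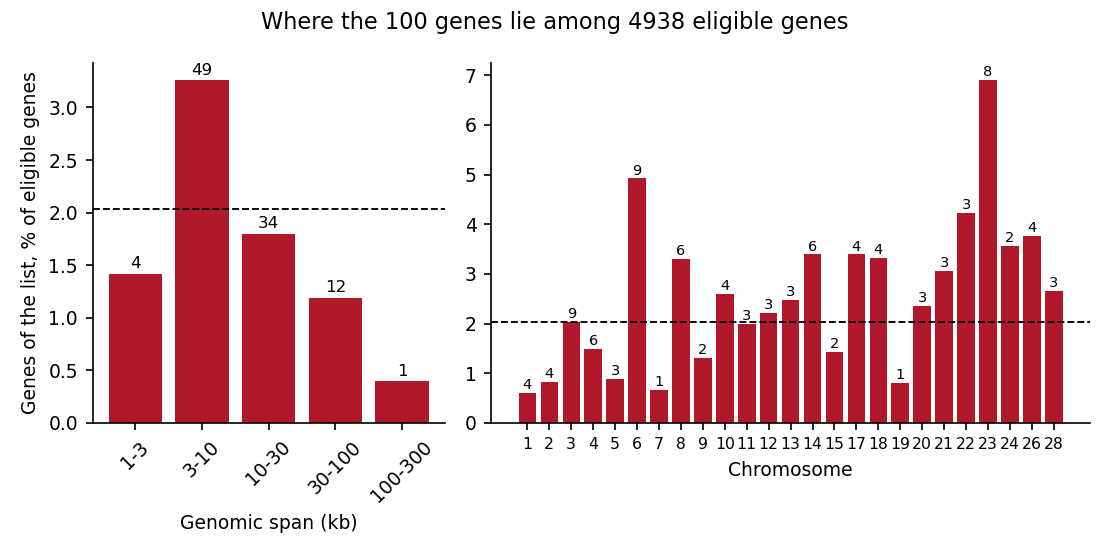
Members as a percentage of eligible genes, by genomic span (left) and by chromosome (right); numbers over the bars are members and the dashed line is the value for all eligible genes, 2.03%. The highest bars are those of 3 to 10 kb (3.26%), chromosome 23 (6.90%) and chromosome 6 (4.92%).

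Both properties were kept when the rule was changed. Under all 18 other settings of the rule, each leaving out 1 library, scaling the counts in another way or moving a bound, the chosen genes had a median span below that of the genes eligible under that setting, and a lower share on chromosomes 1 to 5. These settings reuse the same libraries and their lists share 29 to 92 of the 100 members, so they are not independent of the list. With TMM-scaled CPM the spans were 12.1 kb against 17.9 kb and the shares 26% against 49.4%. The rule was also applied with each other group in turn as the raised one. Genes chosen for DLC1 knockout had a median span of 18.1 kb and 44.0% on chromosomes 1 to 5, and those for PHF5A knockout 19.8 kb and 59.0%, where their eligible genes stood at 15.1 and 15.3 kb and at 48.6% and 49.2%. Those chosen for control had 6.68 kb and 37.0%, against 18.2 kb and 48.9%. Short span was thus shared with the genes highest in control, and was not seen in the genes highest in DLC1 or PHF5A knockout. These lists come from the same 8 libraries and were not tested against each other.

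In CPM of nuclear counts, both libraries lay above the other 6 in 15.6% of eligible genes for SF3B1 knockout, 11.8% for control, 9.14% for DLC1 and 4.83% for PHF5A knockout. This order depended on the scaling: with TMM the shares were 9.98% for SF3B1 knockout, 24.9% for control, 8.65% for DLC1 and 5.69% for PHF5A knockout, and with DESeq2 size factors 9.25%, 29.5%, 7.33% and 5.9%. In CPM of nuclear counts the ratio at rank 100 was 1.26, 1.27, 1.12 and 1.07 in the same order of groups, and with TMM it was 1.19, 1.47, 1.13 and 1.09. For control as the raised group the bounds compared PHF5A and SF3B1 with DLC1 knockout. SF3B1 and control libraries were the shallower ones, with 3 counts worth 0.169 to 0.211 CPM against 0.0949 to 0.110 in DLC1 and PHF5A knockout, and the part of depth in this order was not tested.

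**Figure D5:**
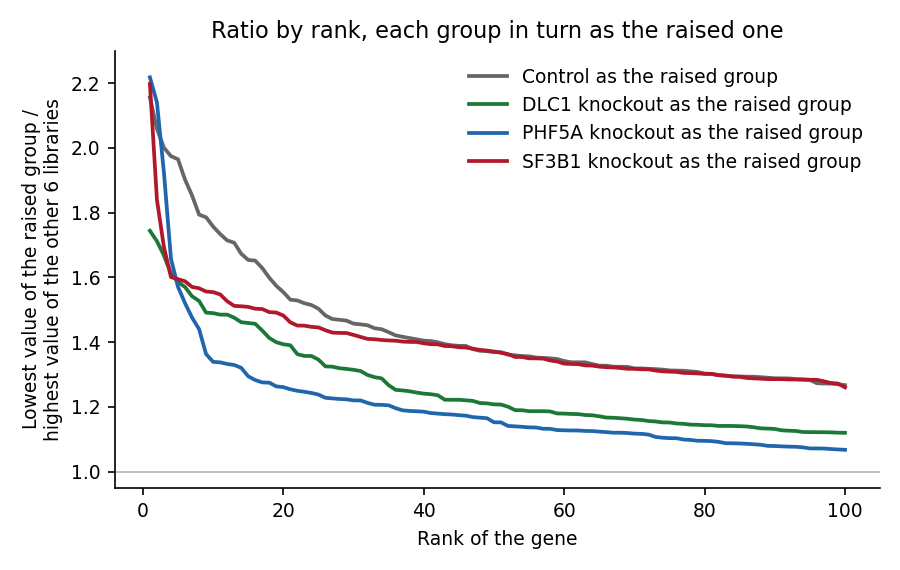
Ratio, in CPM of nuclear counts plus 0.5, of the lowest library of the raised group to the highest of the other 6, for the 100 top genes with each group in turn as the raised one. At rank 100 the SF3B1 and control curves reach 1.26 and 1.27, and those of DLC1 and PHF5A knockout 1.12 and 1.07.

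Members that neighbour each other are given by position. The start of 10 members was within 100 kb of the start of another, and no such count was made for other lists of 100 genes, so it is not set against the density of genes on the small chromosomes. Near the start of chromosome 6, 4 members lay within 1 Mb: the long gene at 571200 to 840354, and those at 946013 to 948538 (plus strand), 985577 to 992508 (minus strand) and 1237322 to 1243410 (minus strand). The first stood at 4.94 and 3.85 CPM in the controls and 10.6 and 8.72 in SF3B1 knockout. The second stood at 13.6 and 20.1 CPM in the controls and 28.5 in each SF3B1 library, the third at 5.78 and 7.13 against 17.1 and 14.0, and the last at 18.2 and 20.1 against 41.6 and 30.5. Only 8 tested genes started in this stretch. The 4 that were no members had group means of at most 1.26 CPM with the added 0.5, and one of them, on the plus strand from 831970 to 885392, overlapped the end of the long member, so reads there could not be assigned to either with certainty.

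The other pairs within 100 kb lay on chromosome 28 (2561472 and 2621307, both minus strand), chromosome 13 (10918509 and 10990369, both minus), chromosome 3 (16850308 minus and 16929948 plus) and chromosome 22 (5164191 minus and 5253269 plus), by their starts. Between the starts of these pairs lay 1 to 6 tested genes, of which at most 1 in each pair had both SF3B1 libraries above the other 6. On chromosome 3, the pair stood at 25.4 and 22.1 CPM in the controls against 36.9 and 39.1 in SF3B1 knockout, and at 8.46 and 11.7 against 20.7 and 17.9. Neighbours of members were also read, since the rule did not choose them. Of 195 nearest tested genes that did not overlap a member and were no members, 48 (24.6%) had both SF3B1 libraries above the other 6, against 12.2% of 7619 such neighbours of eligible genes. The shares were 17.6% against 9.39% on chromosomes 1 to 5, 26.8% against 12.8% on 6 to 10, and 27.2% against 16% on 11 to 28. The median log2 fold change of these neighbours against control was 0.15, against 0.05.

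A location within 1 Mb of the first base or of the last annotated base of a chromosome was held by 25 members and by 10.8% of eligible genes. On chromosomes 11 to 28 this was 32.7% of members against 19.4%, on 6 to 10 it was 27.3% against 7.92%, and on 1 to 5 it was 7.69% against 5.38%, the last on 2 members. The minus strand held 60 members, against 49.3% of eligible genes. Overlap with another annotated feature on either strand was found for 44 members, against 34.7% of eligible genes, and on the same strand for 15, against 9.46%. Of 38 tested features that overlapped a member, 14 had both SF3B1 libraries above the other 6, where all tested genes gave 12.1%. The sources used here do not state whether counting used strand, so the values of these members and of the features they overlap may share reads, and their levels are uncertain to that extent.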

How the data were processed

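Gene counts of 8 stranded, poly(A)-selected RNA-seq libraries were analysed. The deposited values are unnormalized counts for each Ensembl ID, with its position and length. Per the submitters' processing notes, STAR 2.7.11b, Trimmomatic 0.39, featureCounts 1.5.3 and FastQC 0.12.1 were used with genome build GRCg6a. Each treatment yielded about 50000 sorted GFP+ cells, per the labels' protocols. Annotation release and strand setting: not given in the sources used here. In 100% of features the deposited length was end minus start plus 1, so it is a genomic span, and counts may take in introns and nested genes. All count columns matched a labelled sample.

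CPM used non-mitochondrial counts. Tests across genes used edgeR 4.0.16 in R 4.3.3 (all 8 libraries, filterByExpr, TMM, robust quasi-likelihood F-test, Benjamini-Hochberg adjustment over 15619 genes, threshold 0.05). The fit was tested on simulated data. DESeq2 1.42.0 and limma 3.58.1 (voom) were alternatives. TMM gave the SF3B1 libraries an effective size of 1.32 and 1.22 times their nuclear counts and the controls 1.08 and 1.03 times, so folds are lower on that scale than in CPM.

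The members, the lists and the alternatives were chosen with earlier results of these data known. By the rule for naming, the first pair is given by ID, and by position the members at ranks 1 to 10 and 98 to 100, the 3 genes just outside, neighbouring members and the extremes of the guide difference. Members named for their level, span or calls were chosen after their values were seen. The reading by each group in turn and its other scalings, the chromosome classes and the neighbours of members were added after values were seen.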

Additional observations from a re-analysis of the deposited data

How the results depend on the processing

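Membership depended on the settings: of the 100 genes, 62 were kept with TMM-scaled CPM, 50 with DESeq2 size factors, 53 with CPM of all counts, 65 and 58 with an SF3B1 minimum of 1 and 20, 30 with the other knockouts within 1.2-fold, and 29 to 91 without 1 library. The median span of the chosen genes was 12.1 kb and 12.9 kb with TMM and DESeq2 size factors and 8.42 to 10.5 kb without 1 library, and their share on chromosomes 1 to 5 was 23% to 36% without 1 library. The median log2 fold change against control, 0.66, became 1.101 when scaled by library size alone and 0.54 to 0.69 without 1 library. The 22 members called higher than control numbered 13 with DESeq2 size factors, 90 with library size, 12 with limma-voom, 0 with the W share and 0 with the mitochondrial share as a covariate, and 0 to 35 without 1 library. The 3 called against PHF5A knockout numbered 0 with library size, 30 with DESeq2, 30 with no filter on low counts, 0 and 8 with the W and mitochondrial shares, and 0 to 3 without 1 library. The 44 against DLC1 knockout numbered 16, 71 and 71 with library size, DESeq2 and no filter, 0 with the W share, and 0 to 65 without 1 library. The 2 called lower in DLC1 knockout than in control numbered 6 with DESeq2 size factors, 0 with library size, 12 with DESeq2, 7 with no filter and 0 with either share. The 1 called lower in PHF5A knockout numbered 3 and 2 with DESeq2 and no filter, and 0 with the mitochondrial share. With library size it numbered 0, and 6 members were called higher instead, beside 32.2% of all tested genes. For SF3B1 knockout, the share of all tested genes called higher moved in the same direction in most of these settings. Against control it was 11% as reported, 9.69% with DESeq2 size factors, 24.6% with library size and 8.51% with limma-voom. It was 0.0064% with the W share and 1.06% with the mitochondrial share. With no filter it fell to 10.1%, while 31 members were called. Against PHF5A knockout it was 0.365% as reported, 0.122% with library size, 1.88% with DESeq2 and 2.1% with no filter. Against DLC1 knockout it was 2.52%, then 1.16%, 6.42% and 6.01% in that order. With the W share it was 0.0% against PHF5A and 0.0128% against DLC1 knockout, and with the mitochondrial share 0.941% and 3.31%. Of 15619 tested genes, 1231 were called lower in DLC1 knockout than in control. With DESeq2 size factors, library size and DESeq2 these were 1517, 421 and 1840. In PHF5A knockout 2098 were called lower as reported, and 706 and 2613 with library size and DESeq2. Nothing about the members is therefore read from these changes, and their cause was not tested. A group left with 1 library was assumed to vary like the others.

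With the replicate number as a replicate block, 39 members were called higher than control, beside 14.7% of all tested genes. Against PHF5A knockout 16 were called higher, beside 1.59%, and against DLC1 knockout 69, beside 5.78%. In DLC1 and PHF5A knockout 8 and 3 members were called lower than control, beside 1820 and 2618 of 15619 tested genes. The numbers were not taken to pair the libraries: same-numbered deviations from the group means correlated at -0.221 to 0.281 over the 6 pairs of groups.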
